A study of Mus musculus with 6 samples.

Results

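Chemokine receptors are G protein-coupled receptors that steer migrating leukocytes along gradients of small secreted proteins, the chemokines. A T cell carries a changing set of them. CCR8 and CCR4 are known from regulatory T cells (Tregs) and Th2 cells in skin and other barrier tissues, CCR6 from Th17 cells and mucosal Tregs, CXCR3 and CXCR6 from Th1 cells, CXCR5 from follicular T cells and CXCR4 from cells held in bone marrow and lymphoid tissue. GPR15 is a related receptor that guides T cells, Tregs among them, to the large intestine and skin.

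The 9 genes Ccr2, Ccr4, Ccr6, Ccr8, Cxcr3, Cxcr4, Cxcr5, Cxcr6 and Gpr15 were taken by symbol from the 39179 gene identifiers counted in each library, and each matched 1 identifier. They were measured by polyA RNA sequencing in 6 libraries of mouse T cells made into Tregs in culture. Naive splenic CD4+ cells were the starting material, taken at 6 weeks of age from C57BL/6 wild type mice. All cultures ran for 3 days with coated anti-CD3 and with anti-CD28 (1 µg/ml), IL-2 (40 ng/ml) and TGFβ1 (5 ng/ml). In 3 libraries DEL-1-Fc had been added, the integrin-binding protein DEL-1 fused to an antibody Fc part, and in 3 libraries the Fc control. The series title concerns DEL-1 and β3 integrin in Foxp3 expression and Treg responses at mucosal sites. Receptors that direct Tregs to such sites were compared between DEL-1-Fc and Fc. No label states that replicates were separate animals or cultures. The p-values therefore rest on the spread among these libraries alone, and that spread may be technical.

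Library totals ran from 33364166 to 61967687 counts, with DEL-1-Fc replicate 1 the shallowest. A second principal component, carrying 23.3% of the variance, set that library apart from DEL-1-Fc replicates 2 and 3. On the first (44% of the variance) that library also stood apart, at 47.7 against 14.3 and 12.8 for replicates 2 and 3. The Fc libraries lay there at -27.5 to -22.7. Values without DEL-1-Fc replicate 1 are given where they bear on a receptor. Defining T cell genes were high in all libraries, with summed CPM (counts scaled to library size with TMM factors) of the 9 T cell and Treg markers from 4817 to 5464. No list of markers of another cell type exceeded 12.8 summed CPM in any library. The NK marker Ncr1, the dendritic cell markers Clec9a and Siglech, the granulocyte marker S100a8 and the erythroid gene Hbb-bs had 0 counts everywhere, which allows up to 3 counts or 0.0914 CPM in the shallowest library. Other markers of these lists were not all at 0. The erythroid gene Hba-a1 had 0, 1 and 0 counts in Fc and 6, 5 and 2 with DEL-1-Fc. Alas2, also erythroid, had up to 12 counts and the granulocyte marker Mpo up to 10, and none of these 3 was tested. The 2 CD8 T cell markers summed to 10.1 to 10.4 CPM in Fc and 11.9 to 12.8 CPM in DEL-1-Fc. Of these, Cd8a was called higher and Cd8b1 was not. The B cell markers summed to 4.90 to 6.15 CPM in Fc and 5.80 to 7.07 CPM in DEL-1-Fc. The 6 monocyte and macrophage markers summed to at most 0.658 CPM, with no group difference called for Itgam, their only tested gene. Itgam shares 68.7% of its exon bases with another gene on the same strand, so its counts are uncertain. The dendritic cell list summed to 6.46 to 6.90 CPM in DEL-1-Fc against 8.69 to 8.94 CPM in Fc. Nearly all of this sum was Zbtb46, its only tested gene, which was called lower. Flt3 of the same list went the other way, at 0.106, 0.0653 and 0.0911 CPM in Fc and 0.122, 0.318 and 0.118 CPM with DEL-1-Fc. It had 4 to 18 counts per library.

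Among the 9 receptors, Cxcr3 and Cxcr4 rose and Ccr8 and Ccr6 fell in DEL-1-Fc. Ccr4, Cxcr5, Cxcr6 and Gpr15 did not pass the test, and Ccr2 was too rare to be tested. Thus 4 of the 8 tested receptors were called (edgeR quasi-likelihood test, Benjamini-Hochberg adjusted p under 0.05 over all 14928 genes tested), 2 in each direction, where 12.6% of all tested genes were called, 6.4% higher and 6.22% lower. The median log2 fold change was 0.16 over the 8 receptors and 0.01 over all tested genes. In bulk RNA, fewer cells with a receptor and less of its mRNA per cell cannot be told apart.

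The promoters of the 4 receptors that changed are shown because these genes moved in 2 opposed pairs under 1 treatment. They are the 250 bases before the RefSeq start site (GRCm38.p6), cut short where GENCODE M21 already places an exon of the gene, and read 5′ to 3′ on the gene's strand. The table held 8 of the 9 receptors, all but Cxcr5, and gives Ccr6 a pair of starts. Capitals mark matches on either strand to Runx, forkhead, T-box or GATA letters, which are spelled out after the sequences.
Ccr8, chr9:120091883-120092113, plus strand: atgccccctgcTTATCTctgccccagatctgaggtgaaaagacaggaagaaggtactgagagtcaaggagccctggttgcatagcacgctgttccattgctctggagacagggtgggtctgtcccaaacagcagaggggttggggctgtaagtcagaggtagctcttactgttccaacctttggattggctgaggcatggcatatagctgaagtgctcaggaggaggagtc
Ccr6 first start, chr17:8235793-8236042, plus strand: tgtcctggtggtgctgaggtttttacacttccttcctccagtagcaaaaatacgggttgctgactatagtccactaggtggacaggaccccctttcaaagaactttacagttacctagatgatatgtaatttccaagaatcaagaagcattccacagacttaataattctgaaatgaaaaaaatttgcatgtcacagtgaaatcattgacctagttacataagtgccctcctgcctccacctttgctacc
Ccr6 second start, chr17:8242276-8242525, plus strand: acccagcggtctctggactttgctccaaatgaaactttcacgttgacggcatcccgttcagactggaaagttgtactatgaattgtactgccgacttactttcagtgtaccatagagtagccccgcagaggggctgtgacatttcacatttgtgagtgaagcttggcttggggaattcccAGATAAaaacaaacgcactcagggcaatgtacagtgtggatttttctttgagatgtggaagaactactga
Cxcr3, chrX:101734270-101734397, minus strand: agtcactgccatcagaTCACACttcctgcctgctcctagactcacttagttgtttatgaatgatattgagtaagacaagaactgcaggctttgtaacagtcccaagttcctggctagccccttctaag
Cxcr4, chr1:128592300-128592549, minus strand: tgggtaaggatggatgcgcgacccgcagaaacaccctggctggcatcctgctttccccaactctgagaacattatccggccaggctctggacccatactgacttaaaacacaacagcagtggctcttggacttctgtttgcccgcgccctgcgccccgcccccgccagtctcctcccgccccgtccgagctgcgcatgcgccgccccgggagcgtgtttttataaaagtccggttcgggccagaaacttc

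The promoters differed within each pair. Of the receptors that rose, Cxcr4 had a GC-rich window (61.2% GC, 19 CpG in 250 bases) and Cxcr3 did not (48.0% GC, 3 CpG). The T-box letters TCACAC stood 234 bases before the Cxcr3 start, and they occur in 12.3% of 32851 promoter windows of this length. The Runx letters TGTGGT, present in 14.0% of windows, lay 110 bases before that start, in the stretch not printed. The Cxcr4 window and the first Ccr6 window held none of the 6 motifs searched, which also included CCACCC (Klf, 28.1% of windows) and CANNTG (E-box, 66.2%). The GATA letters AGATAA, present in 9.99% of windows, stood 239 bases before the Ccr8 start and 70 bases before the second Ccr6 start, so both receptors that fell held a match. Ccr2, which was not tested, held one too, 97 bases before its start. Among the other receptors, Runx letters lay 10 bases before the Cxcr6 start and 85 and 79 bases before the Gpr15 start. The forkhead letters GTAAACA (3.17% of windows) occurred in none of the members' windows, and no matches of different motifs overlapped. A match is a description of the letters in the window, not of a bound site.

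Per kilobase of merged exons, Ccr8 mRNA was the most abundant of the 9 in both groups. Its level was 177 ± 0.819 CPM per kb in Fc (SD, n = 3) and 104 ± 5.11 CPM per kb in DEL-1-Fc. Ccr4 followed with a level of 56.7 ± 0.696 and 53.2 ± 6.86 CPM per kb, and Ccr6 with 18.7 ± 1.12 and 12.9 ± 2.01 CPM per kb. Cxcr3 (3.32 ± 0.25 CPM per kb in Fc) and Cxcr4 (3.26 ± 0.424) had ranges that overlapped in Fc and again in DEL-1-Fc, so their order was not resolved. Cxcr5, Cxcr6, Gpr15 and Ccr2 came below, and every other pair of neighbours in the order was separate in all 3 libraries of both groups. The Ccr8 share of the summed level per kilobase was 67.6% to 68.1% in Fc and 53.5% to 60.5% in DEL-1-Fc, and the Ccr4 share was 21.3% to 22.0% and 25.3% to 31.2%. The summed level of the 9 itself was lower in DEL-1-Fc, at 178.8 to 189.4 against 260.3 to 261.8 CPM per kb.

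**Figure D1:**
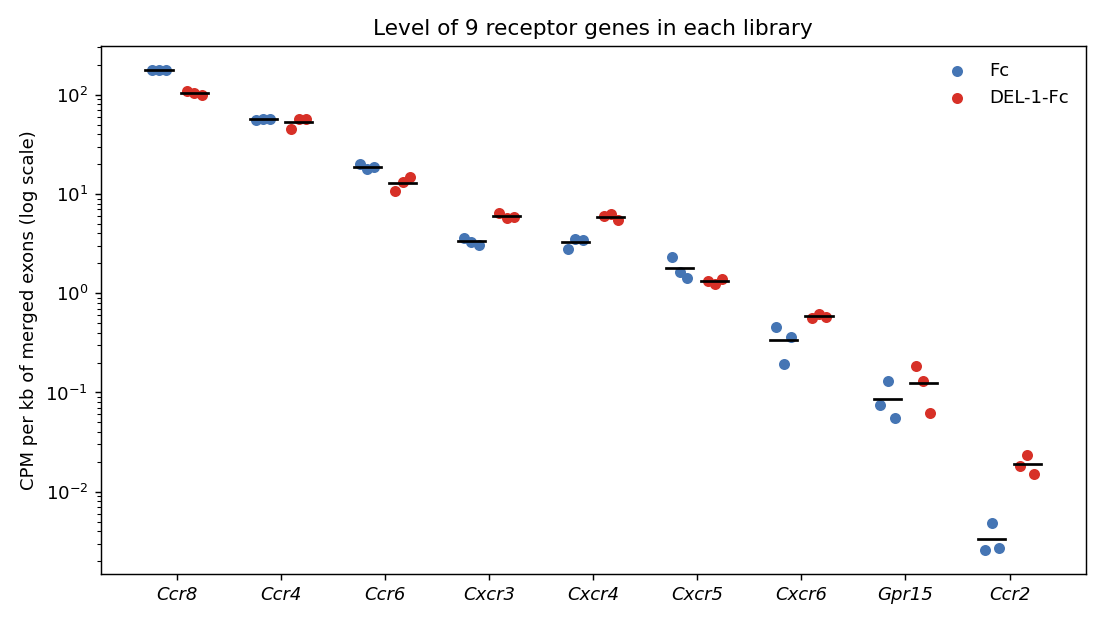
Level of each receptor gene in CPM per kilobase of merged exons (vertical axis, log scale) in the 3 Fc (blue) and 3 DEL-1-Fc (red) libraries, with black bars at group means. Ccr8, Ccr4 and Ccr6 lie above the others in both groups, and Cxcr3 and Cxcr4 overlap each other within each group.

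Ccr8 encodes the receptor for CCL1 and CCL8 and lies on chromosome 9 (120092114 to 120094906, plus strand, GRCm38). In Fc, Ccr8 mRNA stood at 208, 209 and 207 CPM, and with DEL-1-Fc at 127, 124 and 115 CPM. All 3 DEL-1-Fc libraries lay far below the Fc libraries, which differed from each other by less than 2 CPM. Ccr8 fell 1.70-fold (log2 fold change -0.77, SE 0.0596, edgeR adjusted p = 0.000122), and this was the largest called fall among the 9. Without DEL-1-Fc replicate 1 the log2 fold change was -0.80. The call held in all 16 alternative settings, with an adjusted p of at most 0.00211.

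Ccr6, the receptor for CCL20, lies on chromosome 17 (8236043 to 8257141, plus strand). Fc libraries held 46.1, 40.9 and 42.9 CPM of it and DEL-1-Fc libraries 25.0, 30.6 and 34.3 CPM. The groups did not overlap, but the DEL-1-Fc libraries were more spread than the Fc libraries, with replicate 1 lowest. Ccr6 fell 1.44-fold (log2 fold change -0.53, SE 0.11, edgeR adjusted p = 0.0147). Leaving out Fc replicate 1 ended the call (-0.48, adjusted p = 0.0813), and so did leaving out Fc replicate 3 (-0.53 with an adjusted p of 0.0567). It held without DEL-1-Fc replicate 1 (-0.42, adjusted p = 0.00247), and over all alternatives the adjusted p ran from 0.000168 to 0.0813.

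Ccr4, the receptor for CCL17 and CCL22, lies on chromosome 9 (114490316 to 114504916, minus strand). Ccr4 CPM was 173, 176 and 177 in the Fc libraries against 140.0, 176 and 177 with DEL-1-Fc. DEL-1-Fc replicates 2 and 3 lay within the Fc range or within 1 CPM of it, and only DEL-1-Fc replicate 1 was lower. The log2 fold change of -0.09 (SE 0.0908, edgeR adjusted p = 0.563) did not pass, with a 95% interval from -0.30 to 0.11. Without DEL-1-Fc replicate 1 it turned to 0.01 (adjusted p = 0.878).

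Since Ccr4 and Ccr8 are both Th2 and Treg receptors, their ratio was taken within each library, where scaling between libraries cancels. The ratio of Ccr4 to Ccr8 levels per kilobase was 0.316, 0.320 and 0.325 with Fc and 0.418, 0.542 and 0.583 with DEL-1-Fc. Every DEL-1-Fc library was above every Fc library (exact permutation test, two-sided p = 0.1, the smallest that 3 against 3 allows; Benjamini-Hochberg p = 0.167 over 5 ratios). The ratio of Ccr6 to Ccr8 overlapped between groups, at 0.0993 to 0.112 in Fc and 0.0998 to 0.150 in DEL-1-Fc (exact permutation p = 0.3, adjusted 0.375). The 5 ratios, which also paired Cxcr3 and Cxcr4 with Ccr8 and with each other, were chosen after the levels had been seen.

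Cxcr3, the receptor for CXCL9, CXCL10 and CXCL11, lies on chromosome X (101731535 to 101734269, minus strand). Its CPM was 6.20, 5.73 and 5.34 in the Fc libraries and 11.2, 9.84 and 10.1 with DEL-1-Fc. All DEL-1-Fc libraries lay above all Fc libraries. Cxcr3 rose 1.80-fold (log2 fold change 0.85, SE 0.105, edgeR adjusted p = 0.00117), and it rose by 0.79 without DEL-1-Fc replicate 1. The call held in all 16 alternative settings, with an adjusted p of at most 0.0107.

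Cxcr4, the receptor for CXCL12, lies on chromosome 1 (128588199 to 128592293, minus strand). With Fc it stood at 5.02, 6.43 and 6.25 CPM, and with DEL-1-Fc at 10.8, 11.3 and 9.83 CPM. The groups were again separate. Cxcr4 rose 1.80-fold (log2 fold change 0.85, SE 0.122, edgeR adjusted p = 0.00246), and it rose by 0.84 without DEL-1-Fc replicate 1. The call held in all 16 alternatives, with an adjusted p of at most 0.0124. The ratio of Cxcr3 to Cxcr4 levels per kilobase was 1.04 ± 0.219 in Fc and 1.02 ± 0.0951 in DEL-1-Fc (SD, n = 3; exact permutation p = 1). CD8 T cells can carry Cxcr3, Cxcr4 and Cxcr6, and Cd8a also rose, from 2.37 ± 0.133 to 4.06 ± 0.447 CPM (SD, n = 3), while Cd8b1 measured 7.96 and 8.20 CPM. The part of CD8 markers in these results was not tested.

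**Figure D2:**
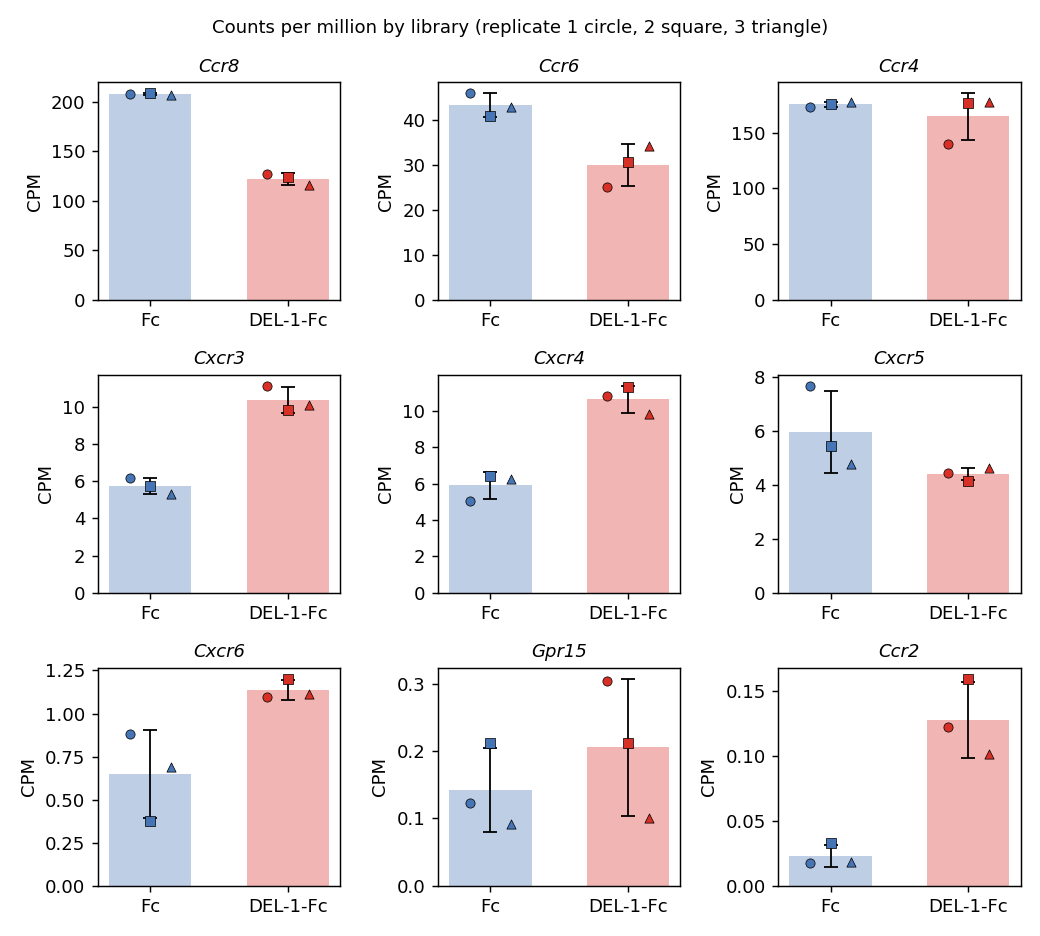
CPM of each receptor gene (vertical axes, linear from 0, each with its own scale) in Fc and DEL-1-Fc libraries, where symbols are single libraries, bars are means and error bars are SD (n = 3). Ccr8 and Ccr6 are lower and Cxcr3 and Cxcr4 higher in DEL-1-Fc with no overlap, and Ccr4 differs only through DEL-1-Fc replicate 1.

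Cxcr5, the CXCL13 receptor of follicular T cells and B cells, lies on chromosome 9 (44511787 to 44561877, minus strand). Values of 7.68, 5.45 and 4.79 CPM in the Fc libraries compared with 4.45, 4.16 and 4.62 CPM after DEL-1-Fc. The groups did not overlap, yet Fc replicate 1 stood well above the other Fc libraries and Fc replicate 3 was close to DEL-1-Fc replicate 3. The log2 fold change was -0.44 (SE 0.175, 95% interval -0.83 to -0.04), and it did not pass adjustment (edgeR adjusted p = 0.146). It was -0.22 without Fc replicate 1, with no call in any of the 15 alternatives that gave a value (adjusted p 0.0939 to 0.453). Cxcr5 shares 110 exon bases, 3.3% of its exons, with Bcl9l on the other strand.

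Cxcr6, the receptor for CXCL16, lies on chromosome 9 (123806475 to 123811760, plus strand) within Fyco1, which is on the other strand and shares no exon base with it. Cxcr6 mRNA reached 0.881, 0.375 and 0.692 CPM with Fc and 1.10, 1.20 and 1.11 CPM with DEL-1-Fc, from 23 to 68 counts per library. DEL-1-Fc lay above Fc in every library. The log2 fold change of 0.82 was nearly that of Cxcr3, but its SE of 0.285 was larger and it did not pass (95% interval 0.17 to 1.46, edgeR adjusted p = 0.101). Its adjusted p ran from 0.0693 to 0.24 over 15 alternatives. Fyco1 itself overlapped between groups, with means of 18.7 CPM in Fc and 18.6 CPM with DEL-1-Fc.

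Gpr15 lies on chromosome 16 (58717433 to 58719070, minus strand) and shares 204 exon bases, 12.5% of its exons, with Cpox on the other strand. Its level was 0.123, 0.212 and 0.0911 CPM with Fc and 0.305, 0.212 and 0.101 CPM with DEL-1-Fc, from only 5 to 13 counts per library. The groups overlapped. The log2 fold change of 0.42 had an SE of 0.52 and a 95% interval from -0.76 to 1.60 (edgeR adjusted p = 0.648), an interval that takes in both 0 and the rise of Cxcr3, so a change of that size was not detectable at this depth. Cpox measured 50.6 CPM with Fc against 42.7 CPM with DEL-1-Fc. Counting both strands, 10.8% of the 31-base words of Gpr15 also occur in another gene, a share that includes the stretch shared with Cpox. The few reads of Gpr15 are therefore uncertain.

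Ccr2, the CCL2 receptor known from inflammatory monocytes and effector T cells, lies on chromosome 9 (124101950 to 124113557, plus strand). It had 1, 2 and 1 counts in Fc and 4, 9 and 6 counts in DEL-1-Fc. All DEL-1-Fc libraries held more, but the Fc libraries were under the 3 counts that a count of 0 also allows, and the gene did not pass the low-count filter. The summed counts of 19 and 4 gave a ratio of 5.53 after scaling to library size, with an exact interval from 1.84 to 22.3 that covers counting error only. With no filter its edgeR adjusted p was 0.0626. The monocyte markers Lyz2, Csf1r, Cd14 and Fcgr1 had at most 6 counts in any library. Adgre1 of that list had 3, 3 and 3 counts in Fc and 1, 6 and 8 with DEL-1-Fc. Itgam, another gene of that list, shares most of its exon bases with a gene on its own strand. It had 3 to 15 counts in Fc and 9 to 22 counts with DEL-1-Fc (log2 fold change 1.04, edgeR adjusted p = 0.178). Its part in the Ccr2 counts was not tested.

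**Figure D3:**
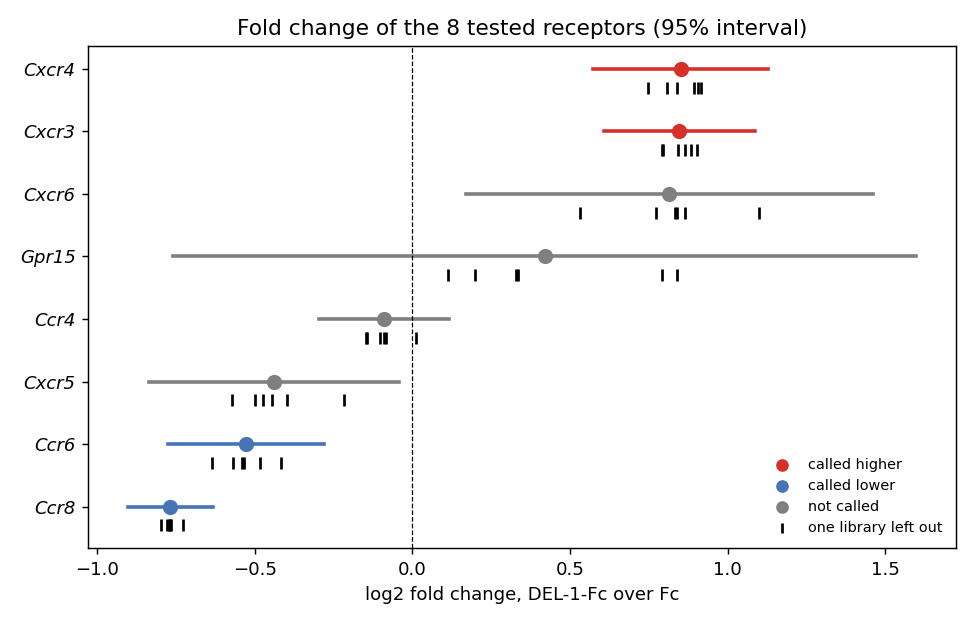
Log2 fold change of the 8 tested receptors, DEL-1-Fc over Fc (horizontal axis), with 95% intervals. Red is called higher, blue called lower and grey not called, and black ticks below each line are the values with one library left out. The ticks of Ccr8 (-0.80 to -0.73), Cxcr3 (0.79 to 0.90) and Cxcr4 (0.75 to 0.92) stay on one side of 0, and 1 tick of Ccr4 crosses it.

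In all, 7 of the 9 receptors, and 6 of the 8 tested, had groups that did not overlap in CPM, where 34.8% of all tested genes had such groups. Across the 6 libraries, log2 CPM of Cxcr3 and Cxcr4 had a Pearson correlation of 0.91 with each other. Each was correlated negatively with Ccr8, at -0.97 and -0.94, and with Ccr6, at -0.90 and -0.92. These points share libraries and carry the group difference, and 719 of the 9200 protein-coding genes searched had a correlation above 0.9 with Ccr8. The genes closest to Ccr8 were Dusp14, a phosphatase (r = 0.999, n = 6), and Klhl5 (0.998). Closest to Ccr6 were Sfxn2 (0.999) and Prkrip1 (0.998), to Cxcr3 Gcsh (0.999) and Siah1a (0.998), and to Cxcr4 Slc11a2 (0.999) and Txnip (0.998). For Ccr4 they were Fam208a and Rev1 (0.996 each), for Cxcr5 Mtfmt (0.976) and Sirt2 (0.970), for Cxcr6 Polr3e (0.990) and Isca1 (0.966), and for Gpr15 Wdr25 (0.993) and Bcl3 (0.982).

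Chromosome 9 carries 5 of the 9 genes. Cxcr6 and Ccr2 belong to its chemokine receptor cluster, in which Ccr9, the gut homing receptor, was called higher, at 0.0705, 0.163 and 0.0546 CPM with Fc against 0.427, 0.46 and 0.472 CPM with DEL-1-Fc (log2 fold change 2.19, SE 0.401, edgeR adjusted p = 0.00803). Ccr9 counts were 4, 10 and 3 in Fc and 14, 26 and 28 with DEL-1-Fc. The gene passed the low-count filter only through the DEL-1-Fc libraries, where it is high, so its call is a description only. It shares 18.8% of its exon bases with a gene on the other strand. Ccr2 was not tested and Cxcr6 was not called. Over all tested genes, 34.8% had groups that did not overlap, in either direction. All 3 of Ccr9, Cxcr6 and Ccr2 had higher CPM in every DEL-1-Fc library than in any Fc library. Their neighbour Lztfl1 overlapped between groups (21.6 and 20.6 CPM), and Xcr1 (1 to 12 counts) did too. Ccr8 and Ccr4, which lie outside the cluster, did not share that direction. Cx3cr1, also outside the cluster on chromosome 9, did share it (log2 fold change 1.76, edgeR adjusted p = 0.00189). Cxcr5 and Ccrl2, outside it on the same chromosome, were lower in every DEL-1-Fc library than in any Fc library. The direction was thus not particular to the cluster. This grouping by position was chosen after the values had been seen.

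Of the 16 other chemokine receptors, 5 were tested, of which 2 rose, 2 fell and 1 was not called. Of the 2 that rose, Ccr9 passed the low-count filter only through its DEL-1-Fc libraries. The median log2 fold change of these 5 was 0.46. Over all tested genes, 12.6% were called. Ccr7, the lymph node homing receptor, fell from 1138, 1136 and 1130.5 CPM in Fc to 886, 733 and 814 CPM with DEL-1-Fc (log2 fold change -0.48, SE 0.0812, edgeR adjusted p = 0.00526). Cx3cr1, the fractalkine receptor of effector T cells and monocytes, rose from 0.849 ± 0.271 to 2.88 ± 0.463 CPM (SD, n = 3), a log2 fold change of 1.76 (SE 0.24, adjusted p = 0.00189). Ccrl2, an atypical receptor that presents chemerin, fell from 9.89 ± 1.60 to 5.41 ± 0.913 CPM (-0.87, SE 0.162, adjusted p = 0.00857). Among the 11 not tested, none exceeded 12 counts in a library.

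Of 15 ligands of the 9 receptors, 6 were tested, of which 1 rose and 2 fell, where 12.6% of all tested genes were called. The median log2 fold change of the 6 ligands was -0.13. Ccl1, which binds CCR8, was 9.88, 10.1 and 9.65 CPM with Fc against 50.3, 43.7 and 33.4 CPM with DEL-1-Fc (log2 fold change 2.10, SE 0.137, edgeR adjusted p = 7.26e-05), so ligand and receptor moved in opposite directions. Of the CXCR3 ligands, Cxcl10 and Cxcl9 fell while Cxcr3 rose, and Cxcl11 was too rare to be tested. Cxcl10 fell from 4.85, 6.36 and 6.25 CPM to 1.71, 2.26 and 2.23 CPM (-1.49, SE 0.165, adjusted p = 0.000651). Cxcl9 fell from 0.594 ± 0.0542 to 0.156 ± 0.0855 CPM (SD, n = 3; -1.83, SE 0.35, adjusted p = 0.00992), with 3 to 40 counts per library. Ccl22, the CCR4 ligand, measured 12.5 ± 1.98 and 17.3 ± 3.45 CPM (SD, n = 3) and was not called in the main fit. Among the fits with 1 library left out, it was called only without DEL-1-Fc replicate 3 (0.61, edgeR adjusted p = 0.0415). Ccl20, the CCR6 ligand (log2 fold change 0.23), and Cxcl16, the CXCR6 ligand (-0.49), did not pass. Cxcl12 and Cxcl13, which bind CXCR4 and CXCR5, had at most 4 counts in any library, and 2610528A11Rik, which encodes the GPR15 ligand, had 3 to 6. Ccl17 and Cxcl11 had at most 8 counts in any library, and Ccl2, Ccl7, Ccl8 and Ccl12 had 0 counts in all 6 libraries.

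Of 21 transcription factors linked to these receptors in T cells, 20 were tested, of which 6 rose and 8 fell. Over all tested genes, 6.4% were called higher and 6.22% lower. The median log2 fold change of the 20 factors was -0.11. Tbx21, encoding T-bet, which is known to activate Cxcr3, fell while Cxcr3 rose. Tbx21 CPM was 174, 157 and 155 with Fc and 71.5, 72.5 and 71.1 with DEL-1-Fc (log2 fold change -1.18, SE 0.0642, edgeR adjusted p = 4.4e-05). Eomes, a related T-box factor, also fell (-0.93, adjusted p = 0.00014). Bcl6, the follicular T cell factor linked to Cxcr5, rose from 5.35 ± 0.451 to 9.89 ± 1.47 CPM (SD, n = 3; 0.89, adjusted p = 0.00279), and Cxcr5 was not called. Gata3, the Th2 factor, fell (-0.56, adjusted p = 0.00437) as did Ccr8. Maf, a factor of several helper lineages, rose (1.43, adjusted p = 0.000103). Runx3, Stat4 and Stat3 fell and Klf2 and Smad3 rose, and the calls of Foxp3 (higher), Irf4 and Hif1a (lower) were each lost without 1 or more single libraries. Smad3 transmits the TGF-β signals that are known to induce Gpr15.

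**Figure D4:**
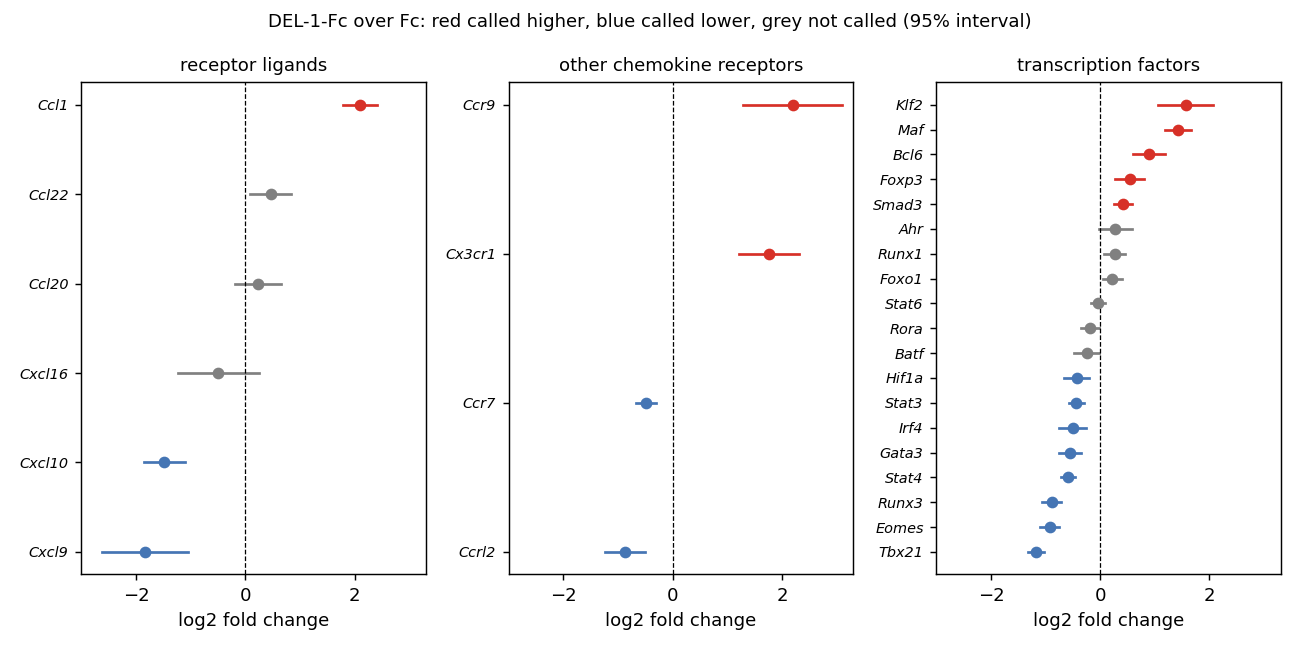
Log2 fold change, DEL-1-Fc over Fc (horizontal axes), with 95% intervals for tested ligands, other chemokine receptors and linked transcription factors named in the text or its lists. Ccl1, Ccr9 and Cx3cr1 lie to the right of 0 and Cxcl9, Cxcl10, Ccr7 and Ccrl2 to the left, and Tbx21 (-1.18) has the lowest and Klf2 (1.56) the highest value among the transcription factors.

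Of 20 listed genes of G protein signalling downstream of the receptors 19 were tested, with 3 called higher and 1 called lower, where 12.6% of all tested genes were called. Their median log2 fold change was -0.03. Rasgrp2, an activator of the integrin switch Rap1, rose from 3.42 ± 0.451 to 9.29 ± 0.838 CPM (SD, n = 3), which is 1.44 on the log2 scale (SE 0.133, edgeR adjusted p = 0.000299). Rac2, a GTPase of cell movement (0.33, adjusted p = 0.0311), Gng2, a G protein γ subunit (0.27, adjusted p = 0.0381), and Rap1b (-0.24, adjusted p = 0.0398) also passed. The calls of these last 3 were lost without any one Fc replicate. That of Gng2 was also lost without DEL-1-Fc replicate 3, and that of Rap1b without DEL-1-Fc replicate 2. Gng2 shares 20.4% of its exon bases with a gene on the other strand. Gnai2, the main inhibitory G protein α subunit of leukocytes (-0.09), and Dock2, which activates Rac (-0.03), did not pass.

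Among 14 genes that switch receptor signals off, 12 were tested and 1 was called, where 12.6% of all tested genes were called. It was Rgs16, a GTPase activator for G proteins (log2 fold change 0.32, edgeR adjusted p = 0.0242). This call ended when Fc replicate 2 (adjusted p = 0.123) or 3 (0.109) was left out. Rgs16 shares 10.1% of its exon bases with an antisense gene. Arrb1, encoding an arrestin (0.45, adjusted p = 0.0751), Rgs14 (0.27, adjusted p = 0.0837) and Rgs10 (0.29, adjusted p = 0.0876) did not pass. Their median log2 fold change was 0.02.

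Of 16 other migration receptors 13 were tested, with 3 called higher and 3 lower and a median log2 fold change of 0.04. Over all tested genes, 6.4% were called higher and 6.22% lower. Gpr83, a receptor enriched in Tregs, rose (1.09, edgeR adjusted p = 0.000119). S1pr4, a sphingosine phosphate receptor, rose too (0.76, adjusted p = 0.00923), a call lost without Fc replicate 1 (adjusted p = 0.0505). Gpr65, an acid-sensing receptor, fell (-0.73, adjusted p = 0.000353), as did Ptger4, a prostaglandin E2 receptor (-0.31, adjusted p = 0.00608). Gpr65 and Ptger4 share 24.7% and 15.3% of their exon bases with a gene on the other strand. S1pr1, the receptor for exit from lymph nodes, was the third called higher (1.21, adjusted p = 0.0155), and Gpr132, a lysolipid receptor, the third called lower (-0.31, adjusted p = 0.00959). The S1pr1 call was lost without any one Fc replicate and the Gpr132 call without Fc replicate 1 or 2.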

How the data were processed

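PolyA RNA-seq counts of 6 libraries, 3 Fc and 3 DEL-1-Fc, were analysed, grouped by title. Each library has a deposited table of raw counts per gene. STAR, HTSeq 0.6.0 and GRCm38 (mm10) are named per the submitters' processing notes. For the annotation release, strand setting and multi-mapping reads, the choice is not given in the sources used here, so genes that overlap others are uncertain. Of 39179 identifiers, 37693 matched GENCODE M21 (GRCm38), which gave symbols, positions and exon lengths.

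In R 4.3.3, edgeR 4.0.16 was run on these counts after filterByExpr (count of at least 10 and total of at least 15), with TMM factors, robust quasi-likelihood test, Benjamini-Hochberg adjustment over 14928 genes and calls at 0.05. SE is the absolute log2 fold change over the square root of F. The scripts were tested on simulated data. Replicates differed beyond counting noise (chi-square per degree of freedom at least 19.9).

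The members, gene lists and tests were chosen with earlier results of these data known. All 9 members are named, and of each list up to 4 genes with the smallest p, plus the tested ligands and other receptors. Results of some listed genes are not reported here. For likeness, the 2 protein-coding genes of at least 5 CPM with the highest Pearson correlation of log2 CPM (prior count 2) are named. Others named were chosen after their values were seen. Alternatives were RLE, upper-quartile or no factors, DESeq2 1.42.0, limma-voom (limma 3.58.1), no robust dispersion, no filter or 5 CPM in 3 libraries, thinning to the smallest library, a replicate block and each library left out. Promoter sequences are from RefSeq (GRCm38.p6).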

Additional observations from a re-analysis of the deposited data

How the results depend on the processing

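Across the alternatives, Ccr8, Cxcr3 and Cxcr4 kept their direction and call, and the order of the 9 by level per kilobase was the same with the longest transcript as length or without scaling factors. With 1 library left out, log2 fold changes ran from -0.15 to 0.01 for Ccr4 (0.0124 without DEL-1-Fc replicate 1, the cause was not tested), -0.64 to -0.42 for Ccr6, -0.80 to -0.73 for Ccr8, 0.79 to 0.90 for Cxcr3, 0.75 to 0.92 for Cxcr4, -0.57 to -0.22 for Cxcr5, 0.53 to 1.10 for Cxcr6 and 0.11 to 0.84 for Gpr15. In these fits the receptors called lower numbered 1 to 2 (1 without Fc replicate 1 or 3), and all genes called higher 428 to 1485 and lower 466 to 1518. Ccr6 alone among the receptors lost its call, with -0.48 and -0.53.

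Counts for lists, left out in the same way after seeing the data, ran for called higher from 1 to 2 (ligands), 1 to 4 (other migration receptors), 1 to 4 (G protein signalling) and 0 to 2 (desensitisation), and for called lower from 0 to 3 (G protein signalling) and 0 to 1 (desensitisation).

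Deviations from the group means had correlations of 0.0163, 0.0885 and 0.0425 between same-numbered libraries. Between libraries of different number they ran from -0.0913 to 0.0382. These few values cannot exclude a pairing. The numbers were not taken as pairs in the main fit. With the replicate number as a block the log2 fold changes were -0.77 (Ccr8), -0.54 (Ccr6), 0.85 (Cxcr3) and 0.86 (Cxcr4), all still called, and all genes called higher were 733 and lower 777. The filter of 5 CPM in 3 libraries left no value for Cxcr5, Cxcr6 and Gpr15, and thinning left none for Gpr15. Depth limits Gpr15 and Ccr2, at 13 counts or fewer per library.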
